A study of Drosophila melanogaster with 4 samples.

Results

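The Wnt locus of Drosophila melanogaster is the stretch of chromosome arm 2L that holds 4 genes of the Wnt family, Wnt4, wg, Wnt6 and Wnt10. Its H3K27me3 regions were chosen by position alone, as every region that overlaps the 160 kb of 2L ending at position 7400000 in fly Release 5. This gave 4 of the 1486 regions of replicate 1, 4 of the 1459 of replicate 2 and 2 of the 2279 of the list deposited for the whole series, called the series list here. In all, 10 of 5224 listed regions were members.

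The chromatin came from whole wild-type embryos of the Oregon-R strain, aged 14 to 16 h, and no mutant, treatment or second stage was included. There were 2 ChIP libraries with an antibody to trimethylated lysine 27 of histone H3, and 2 matching inputs, numbered alike. Only the lists of enriched regions were analysed here. A list gives for each region a start, an end and the authors' own score, and the sources used here state neither its scale nor the threshold or read depth behind it. In whole embryos, a region marked in fewer cells and one marked less heavily in each cell cannot be told apart. The labels call the libraries replicates without saying if each had its own collection of embryos.

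H3K27me3 is written by the Polycomb repressive complex PRC2 and is known for spreading over long domains at developmental regulators in cells where these genes are silent. Wnt proteins are secreted, lipid-modified signals that bind Frizzled receptors and, in the canonical branch, stabilise the β-catenin Armadillo. wg encodes Wingless, the founding fly Wnt and a segment-polarity signal expressed in stripes of the embryonic epidermis. The other members encode paralogous ligands. Wnt4 is known for roles in cell movement and axon guidance, and Wnt6 for a role in forming the maxillary palp. The role of Wnt10 is less well described. A whole embryo therefore mixes cells that express wg with cells that do not.

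In the gene table at hand, all 4 members were found in 1 stretch of 2L, in the order Wnt4, wg, Wnt6, Wnt10. The small gene CG31909 is listed between Wnt4 and wg, and the non-coding lncRNA:CR45304 between wg and Wnt6. No other gene is listed between the first and the last member. CG13786 precedes Wnt4. On the other side, past the antisense RNA asRNA:CR44063, follows ninaC, which encodes a photoreceptor myosin with a kinase domain. That table belongs to Release 6, so it was used for this order and not for positions. The presence of the 4 genes in the stretch is taken from the definition of the locus, and no region or gap below is assigned to a single gene.

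In every list, the called regions of the Wnt locus formed a pair of domains. For the replicates this takes regions less than 2 kb apart as 1 domain, a distance chosen after the data were seen. A wide left domain of about 85 kb was followed by an uncalled gap of about 5 kb and by a right domain of about 30 kb. Left and right mean lower and higher coordinates. Scores fell into the same order in both replicates, highest in the widest region on the left, lower at the start of the right domain and lowest at its far end. This was also the order of the region widths. It leaves out a narrower left region, called separately in replicate 1 only, which scored below the start of the right domain.

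In replicate 1, region 1 ran from 7259226 to 7331788, a width of 72.6 kb. Region 2 ran from 7333314 to 7344245 and was 10.9 kb wide. Together they made up the left domain. Region 3 ran from 7349749 to 7369657 (19.9 kb) and region 4 from 7370157 to 7378661 (8.51 kb), and these made up the right domain. In replicate 2, the left domain was a single region from 7259339 to 7344307, 85.0 kb wide. Its right domain was made of 3 regions, a first of 21.3 kb from 7349590 to 7370858, another of 4.48 kb from 7371613 to 7376087 and a last one of 3.96 kb from 7376146 to 7380102. The series list held 1 region per domain, 85.5 kb from 7258934 to 7344389 and 31.2 kb from 7349556 to 7380743. The lists thus shared the layout and differed in how finely they divided each domain.

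**Figure D1:**
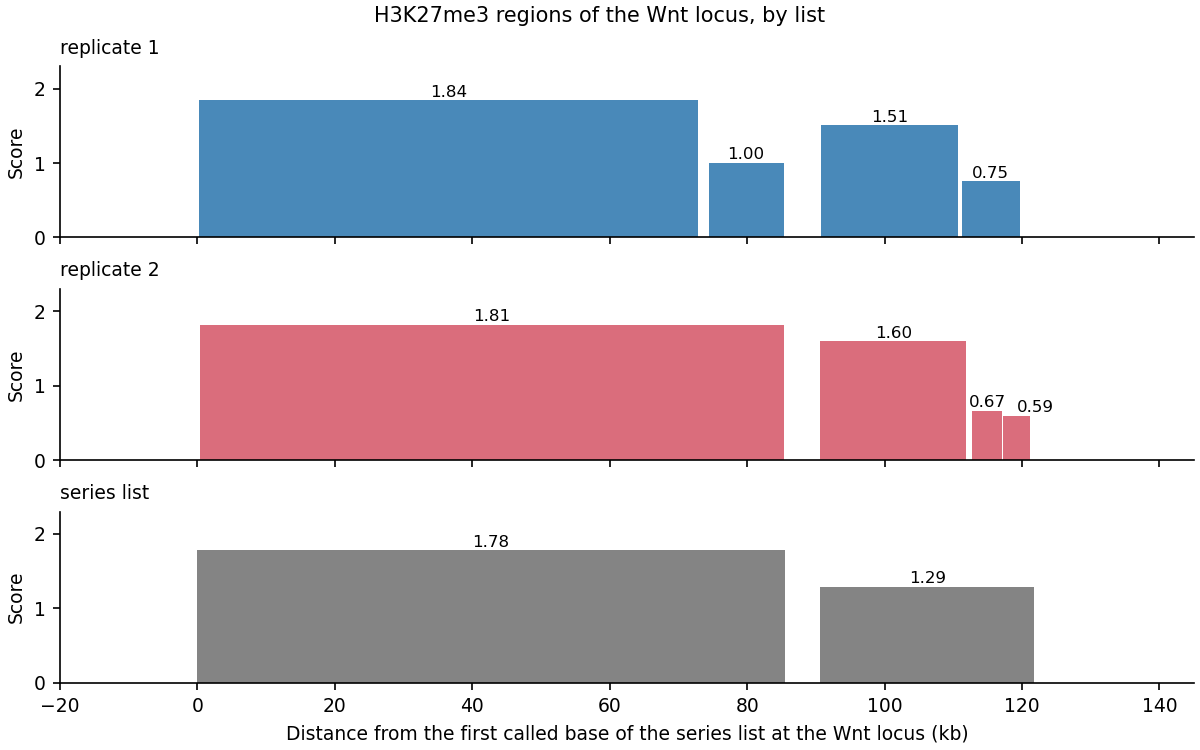
H3K27me3 regions of the Wnt locus in replicate 1 (top), replicate 2 (middle) and the series list (bottom). The horizontal axis is the distance in kb from the first called base of the series list, and each block spans a region with its score as the height. All 3 lists show a left domain, a gap of 5166 to 5503 bp and a right domain, and the lowest score of each replicate is at the far right.

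The gap between the domains was the only break present in all 3 lists. It spanned 5503 bp in replicate 1 (7344246 to 7349748), 5282 bp in replicate 2 (7344308 to 7349589) and 5166 bp in the series list (7344390 to 7349555). The narrowest of these lay wholly within the others, and the 5166 bp common to all were 93.9% of the 5503 bp uncalled in at least 1 list. At this locus the series list called every base that either replicate called. Its gap thus had to lie within both of theirs, and a break in 1 replicate alone could not appear in it. Between the replicates, 96.0% of the replicate 1 gap was also uncalled in replicate 2. The gap was below the authors' threshold and need not lack the mark, and how well reads can be placed in it was not examined.

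The 4 shorter breaks did not recur. Replicate 1 had a break of 1525 bp in the left domain (7331789 to 7333313) and one of 499 bp in the right domain (7369658 to 7370156). Both lay wholly inside called sequence of replicate 2 and of the series list. Replicate 2 had breaks of 754 bp (7370859 to 7371612) and 58 bp (7376088 to 7376145) in the right domain, and both lay wholly inside called sequence of replicate 1 and of the series list. The 499 bp and 754 bp breaks were neighbours, 702 bp apart, without sharing a base.

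Gaps like the common one were looked up across the genome after it had been seen. Regions under 2 kb apart were joined, and gaps of 2 to 10 kb between joined domains of at least 10 kb were counted. They numbered 41 in replicate 1, 47 in replicate 2 and 57 in the series list, with median lengths of 4311, 3988 and 3965 bp. The Wnt gap was longer than these medians. Of the 41 gaps of replicate 1, 14 (34.1%) matched a gap in each of the other lists over at least 90% of the longer one, and 3 of these were on 2L, the Wnt gap included. Most such gaps were thus not matched this closely, and the Wnt gap was among those that were. A match needed a gap of this same class in each other list, so 34.1% is not the share of gaps that recur. An equal shift of edges also costs a shorter gap more of its length.

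Edges were compared on the domains made by this joining, since between the replicates no region of the Wnt locus matched another one to one. Of the 4 domain edges, 3 were placed within 200 bp of each other in the replicates. The end of the left domain differed by 62 bp between the replicates, and the start of the right domain by 159 bp. The outer left edge differed by 113 bp, and lay 405 bp apart at most over the 3 lists. The outer right edge was the exception, with 7378661 in replicate 1 and 7380102 in replicate 2, a difference of 1441 bp, and the series list reached 7380743. Among 474 edges of 237 joined pairs of at least 10 kb in both replicates, the median difference was 145.5 bp and the upper quartile 521 bp. The outer right edge of the Wnt locus was farther apart than most, with 88.2% of these edges differing by no more. For the other 3 edges this share was 28.1% to 52.7%.

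Within the 160 kb stretch, 112 kb were called in replicate 1, 115 kb in replicate 2 and 117 kb in the series list. The called share was 69.9% in replicate 1 and 71.7% in replicate 2, a mean of 70.8% ± 1.2 (SD, n = 2). On 2L as a whole the share was 13.3% and 13.8%, so the Wnt locus was called 5.27 and 5.19 times as densely as its arm. It held 3.67% and 3.61% of the called bases of 2L. The share depends on where the stretch ends, because its outer parts were uncalled. It was 43.6% with 50 kb added on each side and 93.8% with 20 kb taken off each side.

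Windows of the same length put this share in context. Of 750 neighbouring windows of 160 kb on the 6 major arms, the 2 on the Wnt locus included, 20 had a higher mean share over both replicates, or 2.67%. The median window was called over 1.31% of its length in replicate 1 and 1.46% in replicate 2. The stretch was set around a known domain and the windows were not, which favours the Wnt locus in this ranking. On 2L alone, 6 of 143 windows (4.20%) were higher.

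**Figure D2:**
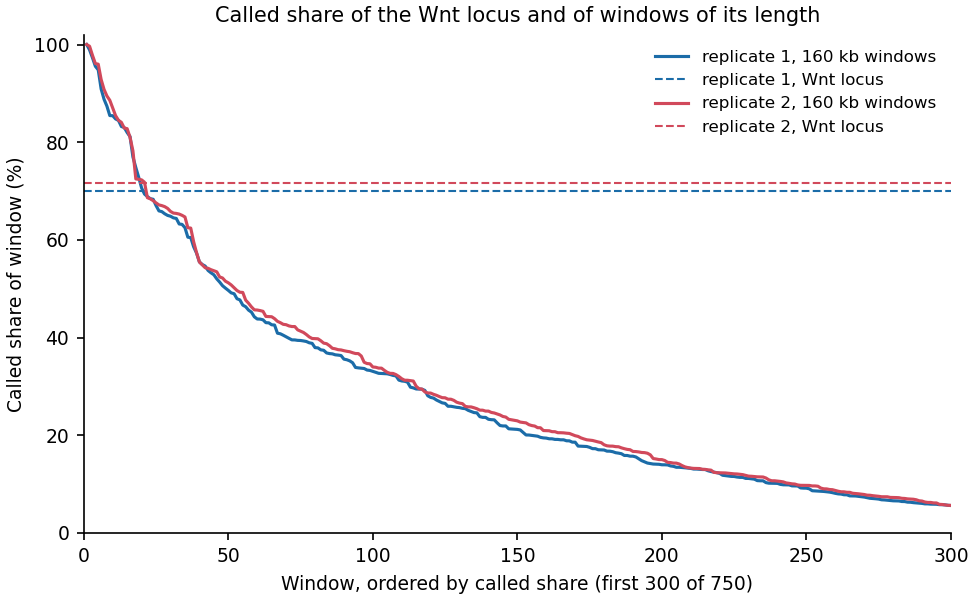
Called share (%) of windows of 160 kb on the major arms, ordered from the highest, for replicate 1 (blue) and replicate 2 (red), with the first 300 of 750 windows shown. Dashed lines mark the Wnt locus at 69.9% and 71.7%, a level that 20 windows of replicate 1 and 21 of replicate 2 exceeded.

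The replicates called nearly the same bases within the Wnt locus. Both called 110984 of the 115595 bp that either called, a shared fraction of 96.0%. This was 99.2% of what replicate 1 called there and 96.8% of what replicate 2 called. Over the 6 major arms the shared fraction was 86.5%. Broad domains elsewhere matched as well. In 48 windows of 160 kb that were at least 50% called, a class added after the data were seen that leaves out the 2 windows on the Wnt locus, the shared fraction had a median of 97.2%. It ranged from 81.1% to 100%, and 27 of the 48 were above the Wnt locus.

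The bases called in 1 replicate alone lay inside both domains and at their edges. Replicate 1 alone called 925 bp in 3 pieces, the longest of 754 bp. Replicate 2 alone called 3686 bp in 5 pieces, of which 1525 bp filled the replicate 1 break in the left domain and 1441 bp extended the outer right edge. The series list contained every base called in either replicate. It added 1049 bp in 4 pieces, each at a domain edge, with 641 bp of them beyond the outer right edge of replicate 2.

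By regions, all 4 of replicate 1 overlapped replicate 2 and all 4 of replicate 2 overlapped replicate 1. In the whole lists, 81.3% of replicate 1 regions and 75.5% of replicate 2 regions did so. Most of that background is narrow. Among regions no narrower than the narrowest Wnt region of the replicates, 545 of 545 in replicate 1 (100%) and 566 of 571 in replicate 2 (99.1%) overlapped the other list, so full overlap at this width was the rule. The weakest match was region 4 of replicate 2, the far right piece, with 63.6% of its length called in replicate 1. Region 4 of replicate 1, at the same end, met 3 regions of replicate 2 over 90.5% of its length. The other 6 regions were covered over 96.9% to 100% of their length. Both series-list regions overlapped both replicates, as did 37% of all series-list regions and 100% of the 332 that were at least 10 kb wide.

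Scores are the authors' values and serve here mainly to rank regions within their own list. The wide left region had a score of 1.84 in replicate 1, rank 134 of 1486, and 1.81 in replicate 2, rank 139 of 1459. It thus lay in the top 9.02% and 9.53% of all regions. Wide regions generally scored high, so like widths were compared as well. Among regions of at least 10 kb, the left region was at rank 122 of 300 and 125 of 311. Among the 27 regions of 60 to 100 kb, a class set after the data were seen, it was at rank 20 in each replicate, below the class medians of 2.22 and 2.24. Most regions of like width thus scored higher than the main Wnt region.

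At the start of the right domain, region 3 of replicate 1 scored 1.51 and region 2 of replicate 2 scored 1.60. Their ranks were 42 of 96 and 41 of 105 among regions of 15 to 30 kb, above the class medians of 1.39 and 1.37. Scores dropped towards the far end. Region 4 of replicate 1 scored 0.75, and the last 2 regions of replicate 2 scored 0.67 and 0.59. The median of all regions of 3.5 to 12 kb was 0.74 in replicate 1 and 0.73 in replicate 2. Region 2 of replicate 1, the 10.9 kb piece just left of the gap, scored 1.00, against the 1.84 of its much wider left neighbour. Its score was above the upper quartile, 0.89, of replicate 1 regions of 3.5 to 12 kb, but the median width of that class was only 5563 bp. Among replicate 1 regions of at least 10 kb, it was at rank 233 of 300, below the lower quartile of 1.05. Replicate 2 called this piece as part of its 85.0 kb region, so it has no separate score there. With 2 replicates and no regions that matched one to one, these differences within the Wnt locus were not tested.

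**Figure D3:**
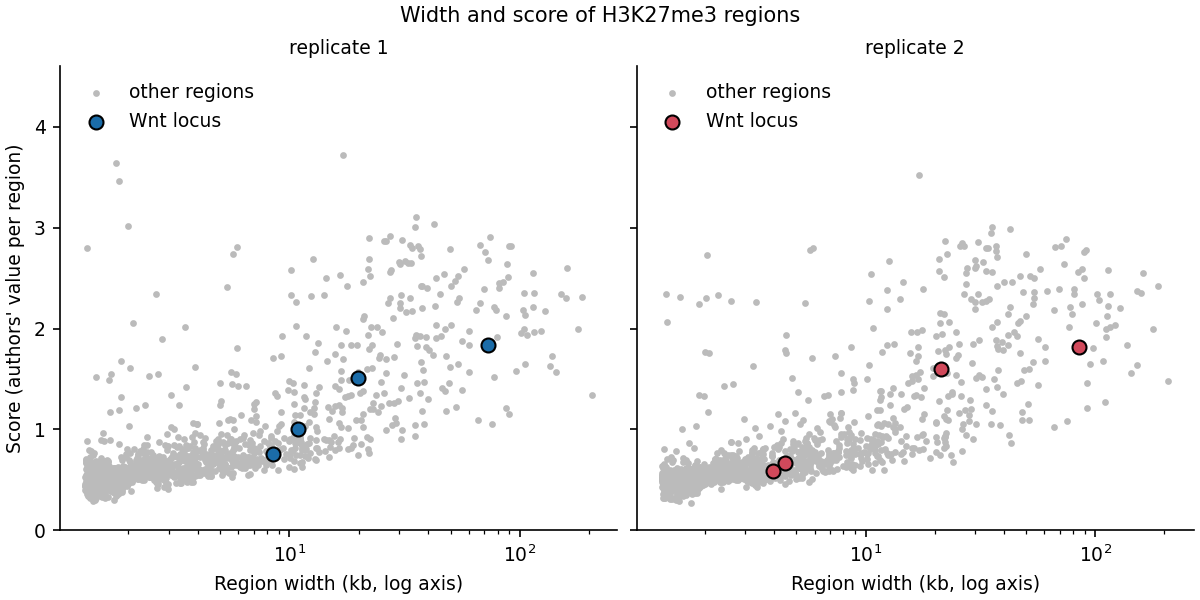
Width (kb, log axis) and score of every region of replicate 1 (left) and replicate 2 (right), with the 4 Wnt locus regions of each as large points. The wide left region, at 1.84 and 1.81, lies below many regions of like width, and the narrow end pieces, between 0.59 and 0.75, lie among the bulk of narrow regions.

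Averaged over each domain by width, the replicate scores bracketed those of the series list. This comparison across lists was not planned, and the lists need not share a score scale. Over all regions, the median score was 0.39 in the series list, 0.62 in replicate 1 and 0.60 in replicate 2. The values are therefore given side by side only. The left domain had a width-weighted mean of 1.73 in replicate 1 and 1.81 in replicate 2, and 1.78 in the series list. The right domain had 1.28 in replicate 1, 1.32 in replicate 2 and 1.29 in the series list. Both replicates and the series list, which is not independent of them, therefore placed the left domain higher. The left domain was also the wider one, and wide regions generally scored high. Of the 332 series-list regions of at least 10 kb, 330 held, to within 500 bp at their ends, at least 1 whole region of each replicate. Such bracketing was found for 172 of these 330 (52.1%), and 148 (44.8%) were below both replicates.

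The Wnt domains had uncalled stretches of 2L on both sides. To the left, no region was called for 89.9 kb in replicate 1, 94.2 kb in replicate 2 and 93.8 kb in the series list. To the right, the uncalled stretch was 158 kb in replicate 1, 158 kb in replicate 2 and 155 kb in the series list. The median distance between neighbouring regions of the major arms was 3742.5 bp in replicate 1 and 3522 bp in replicate 2. Long uncalled stretches were nonetheless common, and 14.8% and 15.6% of all distances were at least as long as the right one. For the left one these shares were 19.5% in replicate 1 and 19.6% in replicate 2. The nearest region on the left was 1383 bp wide with a score of 0.53 in replicate 1, and 1918 bp wide with 0.45 in replicate 2. On the right it was 7997 bp wide with 0.71 in replicate 1, and 6064 bp wide with 0.70 in replicate 2.

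The regions beyond had lower scores and smaller widths than the main Wnt region. The 200 kb to the left of the stretch held 10 regions of replicate 1 and 8 of replicate 2, with scores up to 0.74 and 0.76 and widths up to 5066 and 10193 bp. The 200 kb to its right held 6 and 7 regions, with scores up to 0.80 and 0.92 and widths up to 18034 and 16678 bp. In the series list, flank regions were up to 30723 bp wide on the left and 18340 bp on the right. Their scores reached 0.65 and 0.82. The widest one was nearly as wide as the right Wnt domain of that list, at 31188 bp. No region of these flanks reached the score of the wide left Wnt region or of the first right one in either replicate. The end pieces of the right Wnt domain, at 0.59 to 0.75, had scores within the range of the flanks.

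**Figure D4:**
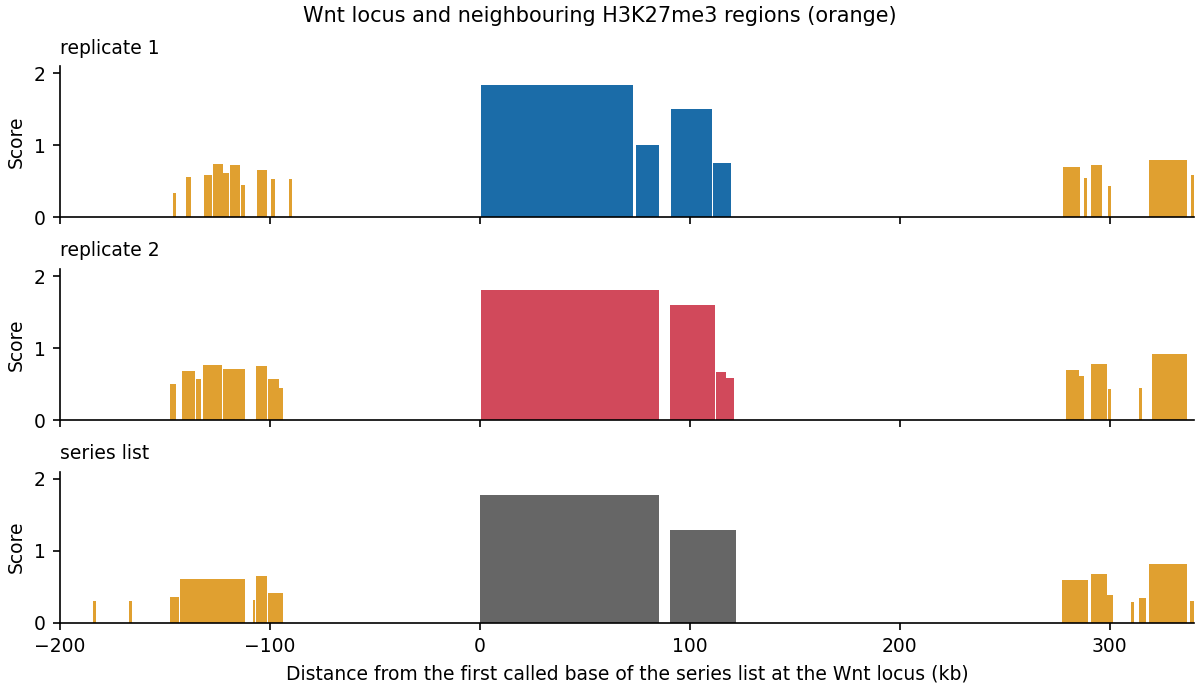
The Wnt locus and its neighbouring H3K27me3 regions (orange) in each list, with distance in kb from the first called base of the series list on the horizontal axis and score as the height. Uncalled stretches of 89.9 to 94.2 kb on the left and 155 to 158 kb on the right separate the Wnt domains from regions with scores up to 0.92.

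Taken as one chain, by joining regions less than 20 kb apart, the Wnt locus was 119 kb long in replicate 1 and 121 kb long in replicate 2, at rank 33 of 474 and 34 of 462 chains by span. It was called over 93.7% and 95.0% of that span, in 4 regions each. Chains of 100 to 140 kb, the Wnt chain included, 21 in replicate 1 and 25 in replicate 2, held a median of 7 and 8 regions and were called over a median of 92.2% and 89.4%. The Wnt chain was at rank 10 and 7 in called share. Its highest score was at rank 13 of 21 and 15 of 25, with class medians of 1.93 and 1.84. In the series list, where the Wnt chain had 2 regions against a median of 10 over 30 such chains, its highest score of 1.78 was at rank 13 and above the class median of 1.62. Against the class medians, its highest score was thus lower in both replicates and higher in the series list.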

How the data were processed

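H3K27me3 ChIP was followed by sequencing in 2 libraries with 2 inputs. Per the file headers, the deposited lists give 1-based regions on FlyBase Release 5. The deposited score is the authors' value per region, with scale, caller and threshold not given in the sources used here. The submitters' processing notes name Bowtie 0.12.7, a short-read aligner. How the series list combines the replicates is not given, and it is not independent of them.

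The regions of the Wnt locus were taken whole and clipped to the stretch for called shares. Overlap counted from 1 bp. Joining used uncalled distances under 2 kb (domains) or 20 kb (chains). Ranks place the highest value first. All results are descriptions, with no test. The named genes are the 4 members, and the regions named are all those of the stretch and the nearest on each side. The genes and lists were chosen with earlier results of these data known. A list of other Wnt pathway genes, gene bodies and 5′ ends were not analysed, since the gene table is of Release 6 and the lists are of Release 5. No sequence is shown, since no genome was used. Alternatives covered score and width minimums, joining, overlap rules, the ends of the stretch, other windows and leaving out a replicate.

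Python 3.11.15, numpy 2.4.6, pandas 2.3.3 and matplotlib 3.10.9 were used. The interval code was tested on simulated data and was exact for 200 of 200 pairs of lists.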

Additional observations from a re-analysis of the deposited data

How the results depend on the processing

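Joining regions under 2 kb apart and the classes of like width, span and gap were chosen after the data were seen. Setting series-list scores beside replicate scores was not planned. The called share of 70.8% ranged from 69.9% to 71.7% with a replicate left out. It was 69.6% for regions at or above the median score, 68.2% for regions of at least 5 kb, 43.6% in the widened stretch and 93.8% in the shortened one. In the same order, the shared fraction of 96.0% became 95.0%, 91.1%, 96.0% and 96.2%, and joining regions under 1 kb or 2 kb apart gave 97.1% or 98.5%. Joining left 5 of 5 or 4 of 4 regions overlapping, and 3 or 2 gaps in place of 6 over both replicates, since fewer regions remain. With 50% of both regions required, 6 of 8 overlapped. The score rank of the highest Wnt region, 9.27% from the top on average, was 40.4% among regions of at least 10 kb and 8.47% on 2L, and 9.02% to 9.53% with a replicate left out. The number of windows with a higher called share was 20 of 750, 20 of 745 with shifted windows, 6 of 143 on 2L and 20 to 21 with a replicate left out. The shared fraction and overlaps need both replicates, so none was left out there. No paired analysis was possible because no list of the inputs, whose numbers match those of the ChIP libraries, was used here. Limits set by depth were not measured, since the lists carry no read counts.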
